A study of Arabidopsis thaliana with 58 samples.

Results

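The 10 genes described here, JAG, AS1, AS2, FIL, YAB3, PHB, PHV, REV, KAN1 and KAN2, encode transcription factors that pattern leaves and other lateral organs. They were chosen by gene identifier, as the regulators that set up the upper and lower faces of the leaf and its outgrowth, and make up 10 of 33331 nuclear genes in the table. A leaf has an upper (adaxial) and a lower (abaxial) side. The HD-ZIP III factors PHB, PHV and REV, together with AS1 and AS2, promote upper identity. KAN1, KAN2 and the YABBY factors FIL and YAB3 act on the lower side, and blade growth follows where the domains meet. JAG, a zinc-finger factor, promotes growth of lateral organs. Methylation of lysine 4 of histone H3 (H3K4) marks plant genes in 3 forms. H3K4me3 lies near the start of transcribed genes, H3K4me2 lies near starts or over weakly transcribed genes, and H3K4me1 lies over the bodies of transcribed genes.

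All material was whole Arabidopsis seedlings, 9 days old and kept in continuous white light. The groups used were pkl, a mutant in PICKLE (PKL), which encodes a CHD3-type chromatin remodeler, the lines jaw-5D, pifQ and hy5, and WT of the Col-0 ecotype. In jaw-5D a microRNA lowers transcripts of TCP growth regulators, pifQ is mutant for the light-regulated factors PIF1, PIF3, PIF4 and PIF5, while hy5 lacks the light-signalling factor HY5. No group carries a transgene in the labels, and the alleles of pkl and hy5 are not given in the sources used here. H3K4me1, H3K4me2 and H3K4me3 were mapped in pkl and WT, and PKL itself was mapped with an antibody against the native protein. The PKL libraries came from jaw-5D, pifQ, hy5 and WT. Each group has 3 libraries, described as biological replicates, and RNA of pkl was sequenced in 3 libraries. PKL binding in pkl, which would give the background of the antibody, was not analysed here.

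The deposited ChIP data are peak lists, 1 per library, so the measure is the length of a gene covered by called peaks, in bp. For H3K4 marks the window was the gene, and 150 bp or more counted as marked. For PKL it was the gene with 1000 bp upstream, and 50 bp or more counted as bound. A value of 0 means that no peak was called, not that no signal was present. In whole seedlings, a mark in fewer cells and a weaker mark in each cell cannot be told apart. "Longer" and "shorter" mean more or fewer bp in the first-named group at a limma adjusted p under 0.05, adjusted over all genes tested. Where noted, log2 differences are centred, that is, relative to the median of the genes marked in every library, a shift of 0.16 for H3K4me2. The score of a peak is the authors' value, 10 times -log10 q cut to a whole number, and its fold enrichment is the authors' ratio at the summit.

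The histone lists held 14395 to 21880 peaks per library. The PKL lists held 11379 to 13979 peaks in jaw-5D, pifQ and hy5, against 821, 632 and 2824 peaks in WT. The WT lists of PKL end at q = 0.01 and those of the other lines at q = 0.05, and they name the chromosomes in another style, so how the lists were made and the genotype cannot be told apart there. Because peak lists carry no read totals, the depth behind them is unknown. The RNA libraries held 17300314 to 17656899 counts. The 4 green tissue markers averaged 1690 to 24411 TPM (transcripts scaled for length and library total) in pkl, the 6 root markers 0.782 to 25.1 TPM and the 3 seed markers 0 to 0.198 TPM. Transcripts of PKL itself were present in pkl, at 29.6, 31.9 and 33.9 TPM. No WT level was compared, so these values do not check the genotype label.

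The 10 genes fell into distinct patterns of H3K4 marks, and these patterns were nearly the same in pkl and WT. The HD-ZIP III genes and AS1 carried all 3 marks in every library of both genotypes. KAN1 and KAN2 carried H3K4me2 and H3K4me3 but no H3K4me1 peak. The YABBY genes carried H3K4me3 alone. AS2 carried H3K4me2 in every library and H3K4me3 in 2 of 3 libraries of each genotype. JAG carried H3K4me2 in WT and no H3K4 peak of any kind in pkl. Genes marked in all 3 libraries numbered 4 of 10 for H3K4me1 in both genotypes, against 36.9% of all nuclear genes in pkl and 36.2% in WT. For H3K4me2 they were 7 of 10 in pkl and 8 of 10 in WT, against 52.5% and 51.3% of all nuclear genes. For H3K4me3 they were 8 of 10 in both genotypes, against 48.9% in pkl and 48.2% in WT. The 10 genes are long, with a median of 3697.5 bp against 1844 bp over all nuclear genes (the part of gene length in these shares was not tested).

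**Figure D1:**
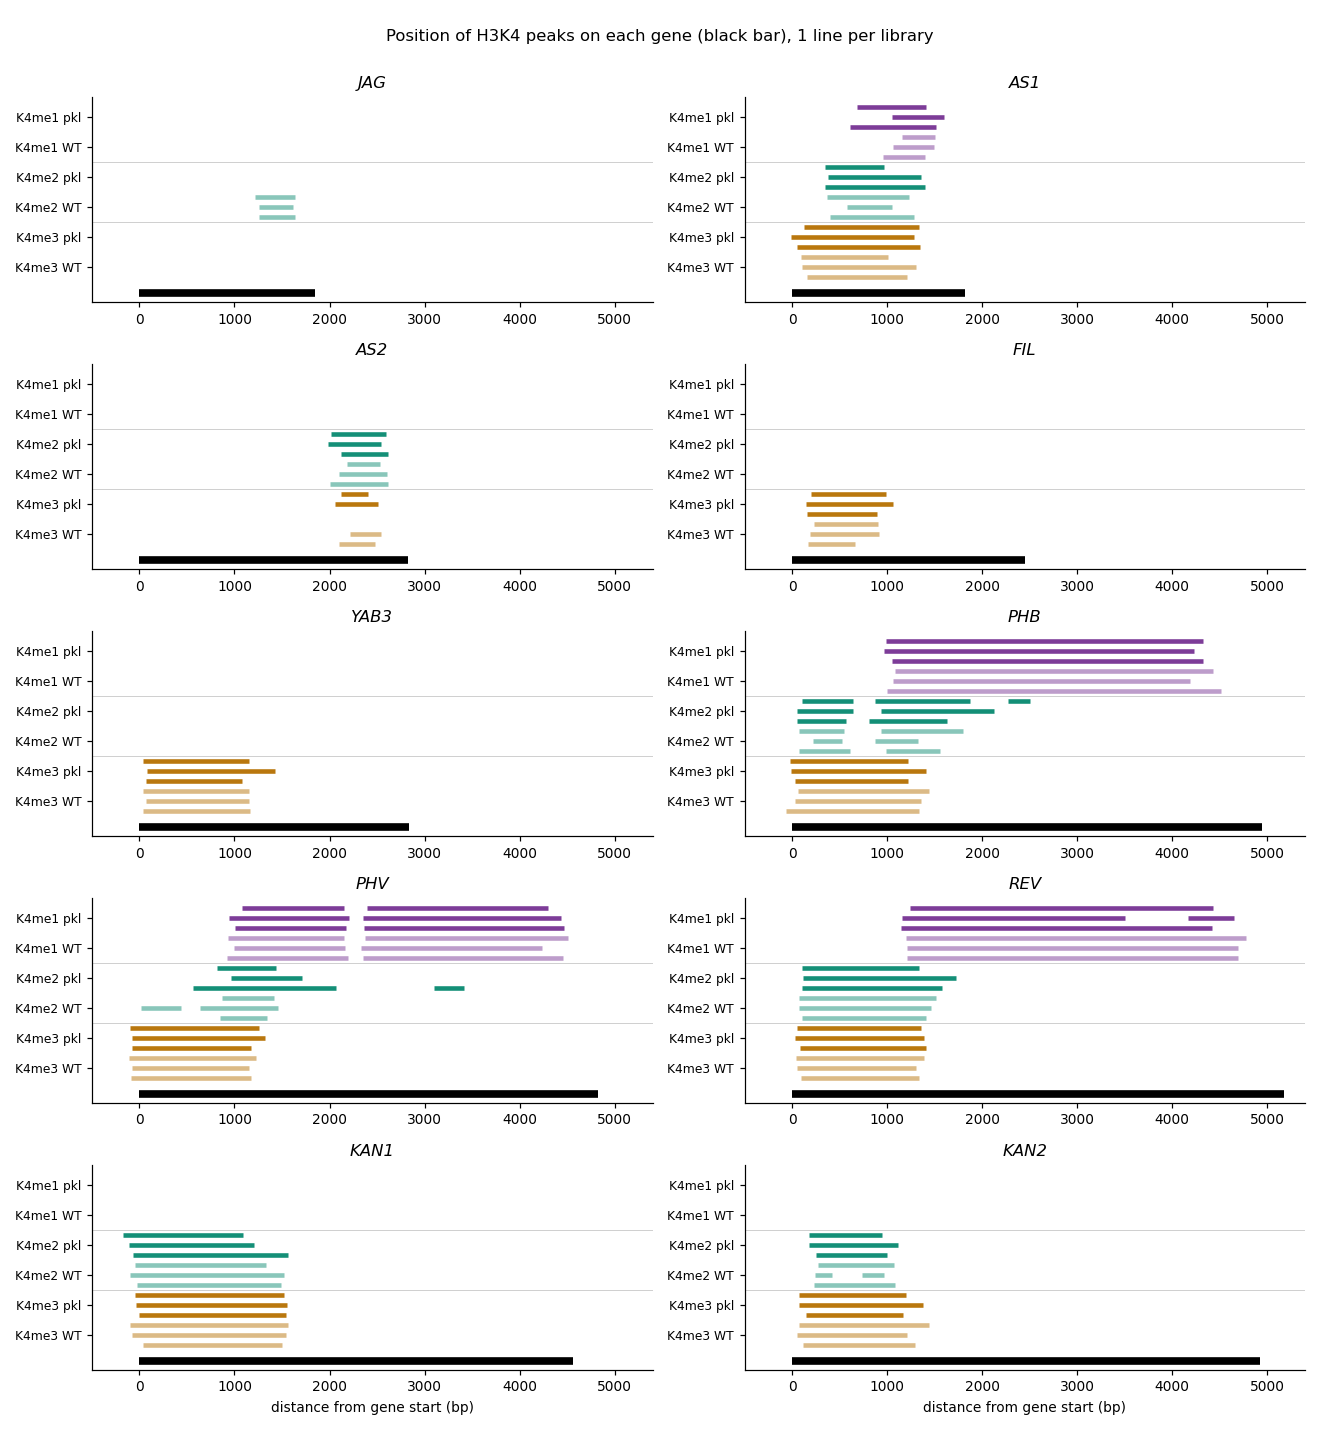
Position of H3K4 peaks on each of the 10 genes, in bp from the gene start, with 1 line per library (purple H3K4me1, green H3K4me2, brown H3K4me3, dark for pkl and pale for WT) and the gene as a black bar. In PHB, PHV and REV H3K4me3 covers the start and H3K4me1 the body, in AS2 the peaks lie toward the 3′ end, and in JAG peaks are drawn in the 3 WT libraries of H3K4me2 and in no other.

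PHB, on chromosome 2 (AT2G34710, 14639323 to 14644273, minus strand, 4951 bp, TAIR10), encodes an HD-ZIP III factor of upper leaf identity. Its H3K4me1 peaks covered 3341, 3265 and 3279 bp in pkl, against 3348, 3121 and 3517 bp in WT. They ran from about 1 kb past the start to near the end of the gene, and the genotypes overlapped. H3K4me3 lay at the other end and covered 1225, 1416 and 1193 bp in pkl, against 1372, 1323 and 1339 bp in WT. It ended at most 1415 bp past the start in pkl and 1437 bp in WT. The H3K4me3 peak of PHB in pkl had scores of 482 to 935, and that in WT 459 to 615. H3K4me2 covered 1764, 1779 and 1336 bp in pkl, against 1339, 765 and 1107 bp in WT. The highest WT library lay above the lowest pkl library, so the groups overlapped, and the centred log2 difference of 0.42 ± 0.21 (SE, n = 3 each) did not pass (limma adjusted p = 0.425).

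PHV, the closest relative of PHB, lies on chromosome 1 (AT1G30490, 10796135 to 10800961, minus strand, 4827 bp). Its H3K4me1 covered 2979, 3335 and 3266 bp in pkl, against 3360, 3059 and 3393 bp in WT. In each of the 6 libraries that cover came as 2 separate peaks, with a gap a little over 2 kb past the start. H3K4me3 covered 1256, 1323 and 1177 bp in pkl and 1225, 1150 and 1175 bp in WT. The H3K4me2 cover of PHV was the most uneven among replicates, at 617, 753 and 1817 bp in pkl and 544, 1237 and 490 bp in WT. In both genotypes 1 library stood well above the others, and the genotypes overlapped.

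REV, on chromosome 5 (AT5G60690, 24397023 to 24402195, plus strand, 5173 bp), encodes the HD-ZIP III factor that also acts in shoot meristems and vascular tissue. Its H3K4me1 covered 3185, 2832 and 3278 bp in pkl, against 3582, 3486 and 3491 bp in WT. All 3 pkl libraries lay below all 3 WT libraries, yet the log2 difference of -0.18 ± 0.07 (SE, n = 3 each) did not pass (limma adjusted p = 0.652). H3K4me2 and H3K4me3 of REV overlapped between genotypes. H3K4me3 covered 1312, 1351 and 1332 bp in pkl and 1352, 1251 and 1241 bp in WT. Over the 3 HD-ZIP III genes, H3K4me1 covered on average 59.9% to 66.6% of the gene in pkl and 67.2% to 68.0% in WT, while H3K4me3 covered 25.7% to 25.9% in pkl and 24.5% to 27.2% in WT.

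AS1, on chromosome 2 (AT2G37630, 15781615 to 15783433, minus strand, 1819 bp), encodes a MYB factor that keeps meristem genes silent in leaves. Its H3K4me1 covered 732, 557 and 910 bp in pkl, against 342, 426 and 444 bp in WT. Every pkl library lay above every WT library, and the means were 733 ± 176.5 bp in pkl and 404 ± 54.4 bp in WT (SD, n = 3 each). The log2 difference of 0.71 ± 0.18 (SE) had an unadjusted p of 0.0111 and did not pass (limma adjusted p = 0.486). H3K4me3 of AS1 covered 1213, 1282 and 1295 bp in pkl, against 916, 1201 and 1053 bp in WT. These groups did not overlap either, with a log2 difference of 0.24 ± 0.09 (SE, n = 3 each, limma adjusted p = 0.372). H3K4me2 covered 615, 973 and 1048 bp in pkl and 864, 472 and 883 bp in WT, with overlap.

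AS2, on chromosome 1 (AT1G65620, 24398143 to 24400969, plus strand, 2827 bp), encodes the LBD protein that works with AS1. Its marks lay far from the start. The H3K4me2 peaks began at least 1986 bp past the start in pkl and 2008 bp in WT, and covered 572, 552 and 496 bp in pkl against 349, 501 and 610 bp in WT. H3K4me3 sat at the same place and covered 282, 456 and 0 bp in pkl, against 0, 332 and 372 bp in WT. No H3K4 peak was called nearer to the AS2 start in any of the 18 histone libraries. The scores of its H3K4me2 peaks were 122 to 174 in pkl and 54 to 102 in WT, and scores from separate lists are given as description.

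The abaxial genes KAN1 and KAN2 encode GARP-type factors. KAN1 lies on chromosome 5 (AT5G16560, 5406863 to 5411424, minus strand, 4562 bp) and KAN2 on chromosome 1 (AT1G32240, 11625700 to 11630626, minus strand, 4927 bp). H3K4me3 of KAN1 covered 1525, 1558 and 1539 bp in pkl, against 1561, 1542 and 1455 bp in WT. That of KAN2 covered 1132, 1310 and 1016 bp in pkl, against 1373, 1163 and 1178 bp in WT. H3K4me2 covered 1093, 1205 and 1563 bp of KAN1 in pkl and 1328, 1519 and 1487 bp in WT. It covered 771, 937 and 743 bp of KAN2 in pkl and 802, 425 and 856 bp in WT. In all 4 of these cases the genotypes overlapped. Both genes are about as long as the HD-ZIP III genes, but neither held an H3K4me1 peak in any of 6 libraries.

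FIL, on chromosome 2 (AT2G45190, 18628265 to 18630712, minus strand, 2448 bp, RefSeq symbol AFO), and YAB3, on chromosome 4 (AT4G00180, 72552 to 75384, minus strand, 2833 bp), encode YABBY factors with overlapping roles. H3K4me3 covered 788, 915 and 737 bp of FIL in pkl, against 672, 732 and 496 bp in WT. All pkl libraries lay above all WT libraries by a small margin, and the log2 difference of 0.33 ± 0.14 (SE, n = 3 each) did not pass (limma adjusted p = 0.419). H3K4me3 covered 1110, 1349 and 1009 bp of YAB3 in pkl and 1114, 1085 and 1131 bp in WT, with overlap. Neither YABBY gene held an H3K4me1 or H3K4me2 peak in any library.

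JAG lies on chromosome 1 (AT1G68480, 25684314 to 25686165, minus strand, 1852 bp). Its H3K4me2 covered 0, 0 and 0 bp in pkl, against 415, 365 and 386 bp in WT. The 3 WT peaks stood at nearly the same place, between 1219 and 1641 bp past the start. They were weak, with scores of 43 to 79 and fold enrichments of 2.16 to 2.63. The means were 0 bp in pkl and 389 ± 25.1 bp in WT (SD, n = 3 each), and the difference passed (limma adjusted p = 0.000414, centred). JAG entered this test through the WT libraries alone, which the filter of 3 marked libraries favours. Without that filter the adjusted p was 0.000627 (limma). Dropping it leaves the bp of JAG as they were and changes only the other genes in the fit, so it does not check this entry. With peaks limited to -log10 q of at least 10, none of these peaks remained and JAG could not be tested. No other H3K4 peak was called within 6000 bp of the JAG start in any of the 18 histone libraries. Over those 18 libraries, the genes with the most similar cover were GLIP2 (distance 0.126 on the log2 scale), WUS (0.174), the homeodomain gene of shoot stem cells, and AT3G44640.1 (0.184). Each had an H3K4me2 pattern like that of JAG, with a mean of 0 bp in pkl and 355 to 383 bp in WT. This likeness follows from choosing them by cover in these same libraries.

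**Figure D2:**
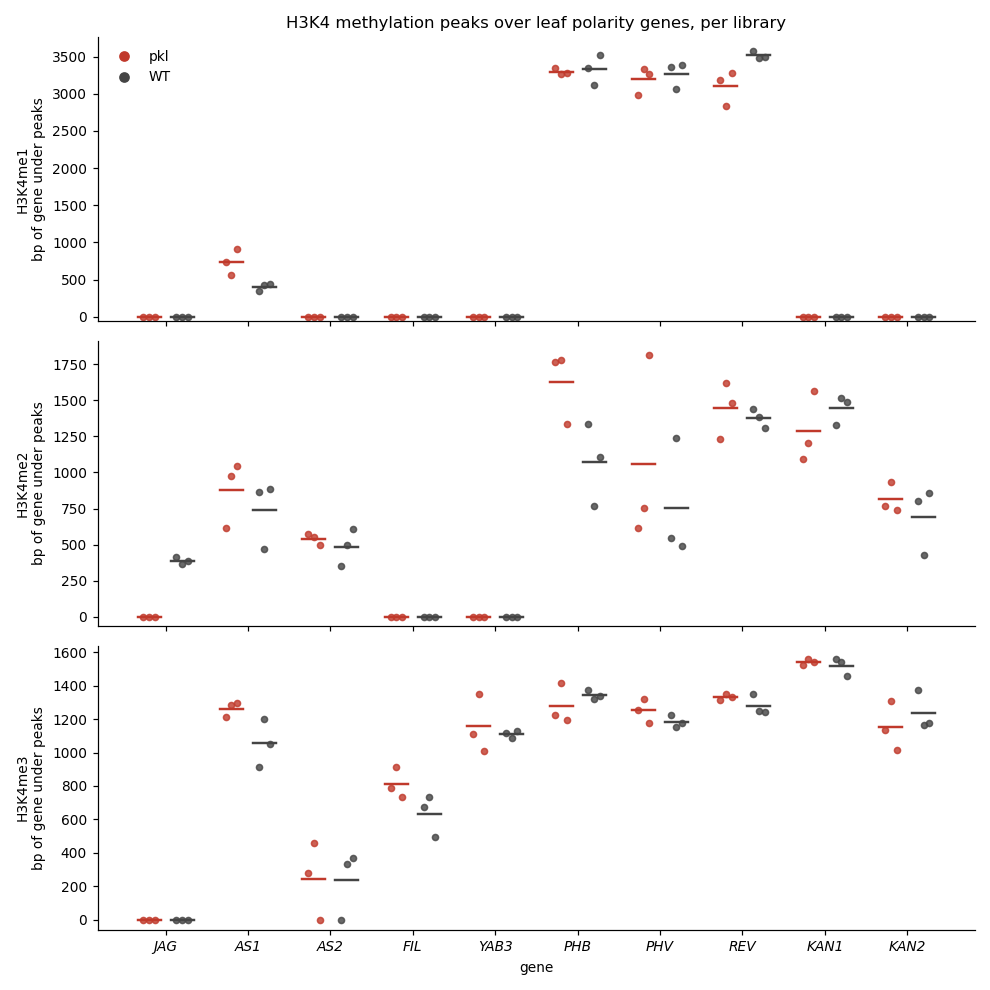
Length of each gene under H3K4me1 (top), H3K4me2 (middle) and H3K4me3 (bottom) peaks, in bp, with 1 point per library and a bar at the mean, pkl in red to the left of WT in grey. JAG is at 0 bp in pkl and at 365 to 415 bp in WT for H3K4me2, and AS1 lies higher in pkl than in WT for H3K4me1 and H3K4me3.

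In pkl, 1 of the 10 genes was called in any mark, JAG for H3K4me2, and it entered that test through the WT libraries alone. Shares of all genes tested are given beside those of the members, which rest on only 4, 8 and 9 tested genes. For H3K4me1, 0 of the 4 that could be tested were longer and 0 shorter by limma, where 0.549% of 13469 genes were longer and 0.148% shorter. At an unadjusted p under 0.05 there were 2 of the 4, AS1 and REV, in opposite directions, where 7.48% of all genes tested were. For H3K4me2, 0 of 8 were longer and 1 of 8, JAG, was shorter, where 0.937% of 19001 genes were longer and 0.637% shorter. For H3K4me3, 0 of 9 were longer and 0 shorter by limma, where 1.12% of 16637 genes were longer and 0.391% shorter, and 1 of 9, AS1, had an unadjusted p under 0.05, where 12.9% of all genes tested did. The genotypes did not overlap in 2 of 4, 1 of 8 and 2 of 9 members tested for H3K4me1, H3K4me2 and H3K4me3, where they did not in 14.1%, 22.7% and 20% of all genes tested. The median log2 differences over the tested genes of the group were -0.02, 0.03 (centred) and 0.04, against 0.04, -0.04 (centred) and 0.04 over all genes tested.

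A list of 41 related genes held other HD-ZIP III, KANADI, YABBY and LBD members, the ARF factors and small RNA genes of leaf polarity, and KNOX, WOX, BOP, corepressor and TCP genes. For H3K4me1 0 of 15 tested were called by limma, and for H3K4me3 0 of 27. For H3K4me2 1 of 31 was called, shorter in pkl. This was WOX1, a homeobox gene of blade outgrowth, with 679, 771 and 761 bp in pkl against 1135, 1159 and 1103 bp in WT. The groups lay well apart, with a centred log2 difference of -0.72 (limma adjusted p = 0.0165) and -0.56 without centring (adjusted p = 0.0421).

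PKL binding differed between the 10 genes in strength and place. In WT no member was bound in all 3 libraries, against 0.792% of all nuclear genes. PHB was bound in 2 WT libraries and AS1 in 1. In the other lines 7, 8 and 6 of the 10 genes were bound in all 3 libraries of jaw-5D, pifQ and hy5, against 23.1%, 23.4% and 20.5% of all nuclear genes. The 10 genes are long, and the part of gene length in these shares was not tested either. Of the 41 related genes 11, 17 and 10 were bound in all 3 libraries of these lines. None of the 41 was bound in 2 or more WT libraries.

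**Figure D3:**
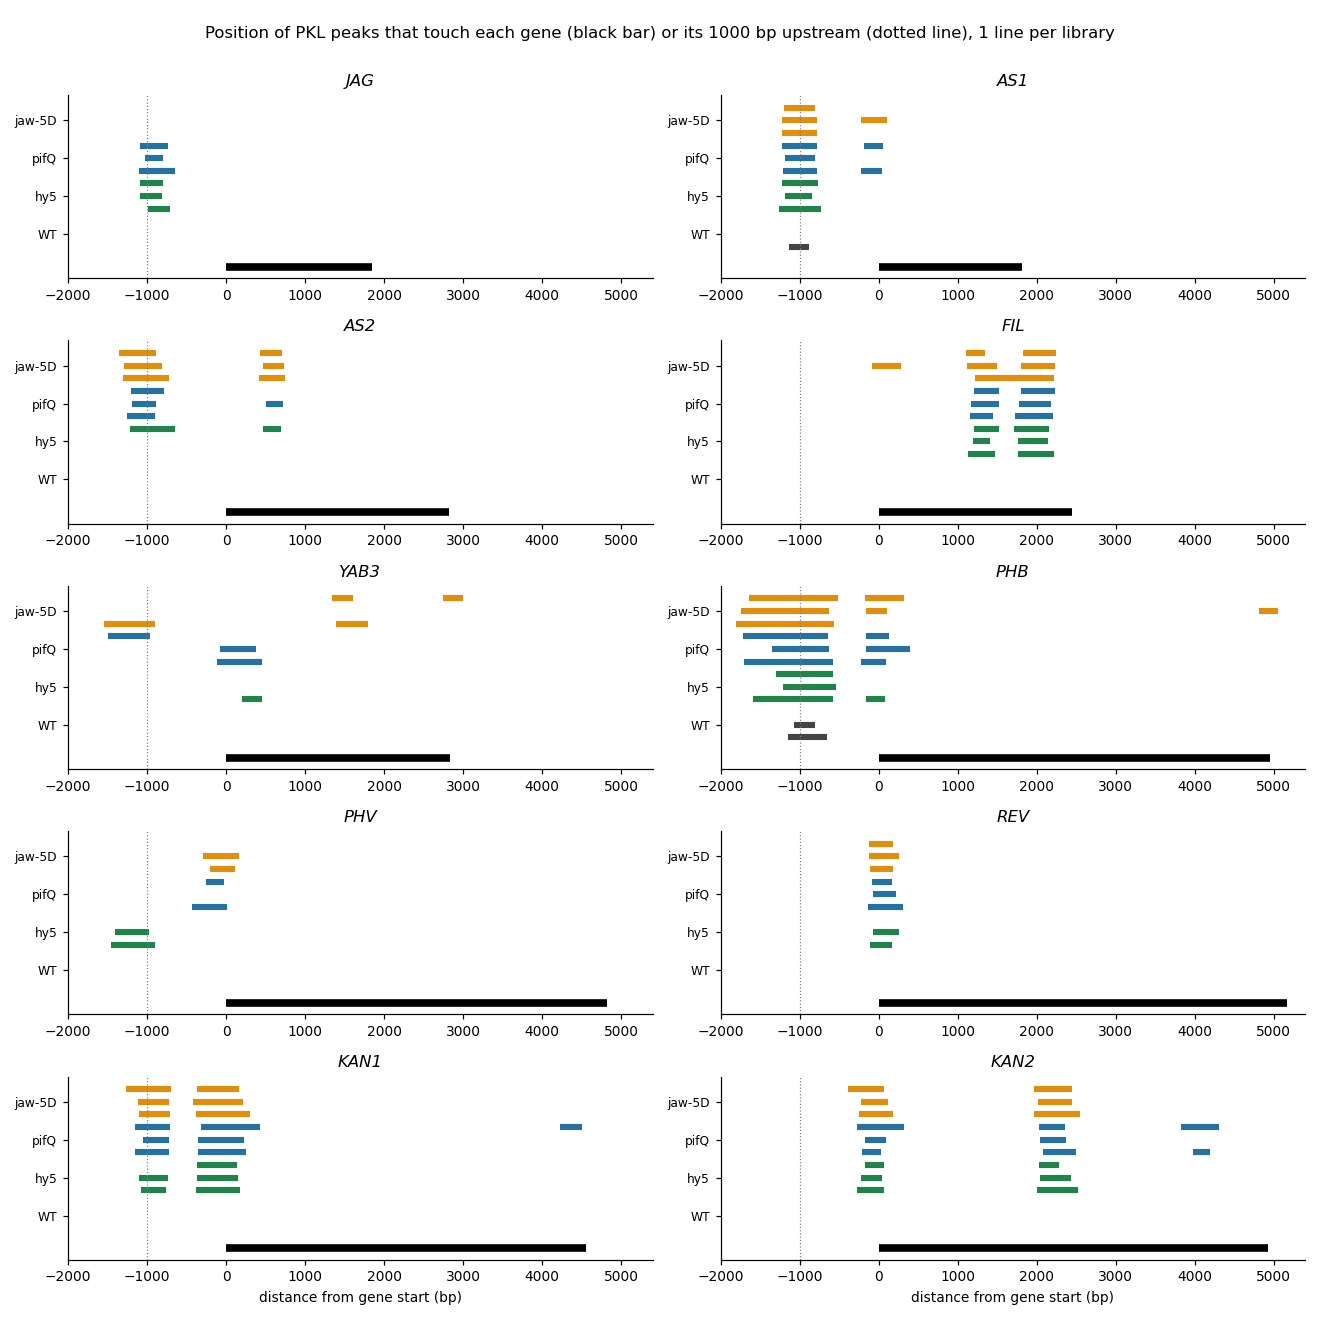
PKL peaks that touch each gene (black bar) or the 1000 bp upstream (from the dotted line to the start), in bp from the gene start, with 1 line per library for jaw-5D (orange), pifQ (blue), hy5 (green) and WT (grey). Each gene has its own arrangement, such as a long upstream peak in PHB, the start in REV, the body of the gene in FIL, and, in JAG, an upstream peak in pifQ and hy5 but not in jaw-5D or WT.

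PHB held the strongest PKL peaks of the group. The peak lay upstream, with a mean summit of 950, 911 and 932 bp before the start in jaw-5D, pifQ and hy5 and 915 bp before it in the 2 WT libraries that had one. Its scores were 397 to 559 in jaw-5D, 639 to 651 in pifQ and 454 to 508 in hy5, against 69 and 202 in WT. Fold enrichment was 5.13 to 7.71 in these lines, against 6.66 and 8.61 in WT, so the 2 WT peaks lay within or above that range although their scores were lower. PKL peaks covered 986, 774 and 438 bp in jaw-5D, 651, 925 and 741 bp in pifQ, 428, 460 and 671 bp in hy5, and 0, 197 and 349 bp in WT. A weak second peak, with scores of 31 to 52, lay over the start in 6 of the 9 libraries. The covered lengths were cut by the window, since the peaks reached up to 1804 bp before the start.

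AS1 was bound upstream in all 9 libraries of jaw-5D, pifQ and hy5 and in WT replicate 3. The mean summit stood 1003, 975 and 1009 bp before the start in jaw-5D, pifQ and hy5 and 936 bp before it in WT. That is at the border of the window, so part of each of these peaks was counted. A weaker second peak, with scores of 57 to 67, lay over the start in jaw-5D replicate 2 and in pifQ replicates 1 and 3. Together they covered AS1 by 192, 542 and 217 bp in jaw-5D, 465, 197 and 482 bp in pifQ, 235, 163 and 275 bp in hy5, and 0, 0 and 114 bp in WT. The 3 highest of these values are the libraries with the second peak. AS2 had a peak upstream in 3 jaw-5D, 3 pifQ and 1 hy5 library, and another 422 to 746 bp past the start in 3 jaw-5D, 1 pifQ and 1 hy5 library. PKL peaks covered AS2 by 393, 465 and 600 bp in jaw-5D, 213, 338 and 96 bp in pifQ, 582, 0 and 0 bp in hy5, and 0, 0 and 0 bp in WT. Every jaw-5D library lay above every pifQ library. How many of all genes show such an order was not computed for PKL, so it cannot be called particular to AS2.

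KAN1 had a PKL peak over its start in all 9 libraries of jaw-5D, pifQ and hy5, with scores of 160 to 440, and a weaker one upstream in 8 of the 9. PKL peaks covered 845, 918 and 979 bp in jaw-5D, 1330, 858 and 890 bp in pifQ, 507, 777 and 808 bp in hy5, and 0, 0 and 0 bp in WT. KAN2 likewise had a peak over its start in all 9, and also one inside the gene that began 1964 to 2075 bp past the start. They covered 947, 784 and 1008 bp in jaw-5D, 1410, 596 and 887 bp in pifQ, 498, 665 and 855 bp in hy5, and 0, 0 and 0 bp in WT. For both genes all libraries of the 3 lines lay above the WT libraries. A gene at 0 bp in every WT library is tested only where all 3 libraries of the other line are bound. The filter thus fixes this order in advance, and it is no separate result.

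FIL was bound inside the gene in all 9 libraries of jaw-5D, pifQ and hy5, between 1102 and 2250 bp past the start. The H3K4me3 peaks of FIL ended at most 1062 bp past the start in pkl and 919 bp in WT, so the PKL peaks lay beyond them. A peak over the start of FIL was called in 1 jaw-5D library. PKL peaks covered FIL by 672, 1191 and 1004 bp in jaw-5D, 736, 759 and 780 bp in pifQ, 762, 610 and 794 bp in hy5, and 0, 0 and 0 bp in WT. YAB3, its close relative, was bound less regularly, with 346, 0 and 504 bp in jaw-5D, 43, 454 and 572 bp in pifQ, 0, 0 and 262 bp in hy5, and 0, 0 and 0 bp in WT. The YAB3 peaks lay upstream, over the start or inside the gene, and libraries of the same line differed in this.

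REV was bound at its start, between 129 bp before and 306 bp past it, in 3 jaw-5D, 3 pifQ and 2 hy5 libraries. PKL peaks covered REV by 305, 377 and 292 bp in jaw-5D, 245, 287 and 436 bp in pifQ, 0, 327 and 269 bp in hy5, and 0, 0 and 0 bp in WT. Peaks touched the PHV window in 2 libraries of each line, with 0, 451 and 319 bp in jaw-5D, 229, 0 and 434 bp in pifQ, 0, 31 and 99 bp in hy5, and 0, 0 and 0 bp in WT. Its peaks were at or just before the start in jaw-5D and pifQ and lay 902 to 1460 bp before it in hy5. Each of the 3 HD-ZIP III genes thus had peaks over its start in jaw-5D and pifQ, while the strongest peaks of PHB, and the hy5 peaks of PHV, lay upstream.

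JAG was bound in 3 of 3 pifQ and 3 of 3 hy5 libraries and in none of jaw-5D or WT. PKL peaks covered 263, 199 and 358 bp in pifQ, 206, 191 and 284 bp in hy5, 0, 0 and 0 bp in jaw-5D, and 0, 0 and 0 bp in WT. The peaks lay between 1107 and 643 bp before the start and were weak, with scores of 35 to 78 in pifQ and 40 to 60 in hy5. With means of 273 ± 80.0 bp in pifQ and 0 bp in jaw-5D (SD, n = 3 each) the difference passed (limma adjusted p = 0.000336). With 227 ± 49.9 bp in hy5 and 0 bp in jaw-5D it passed too (limma adjusted p = 0.000689). JAG entered these tests through the pifQ or hy5 libraries alone. Without the filter on low values the adjusted p-values were 0.000523 and 0.00128 (limma). The bp of JAG are the same there and only the other genes in the fit change, so this does not check that entry. Where peaks were limited to -log10 q of at least 10, to an equal number per library, or to 200 bp or more of a gene in at least 3 libraries, JAG could not be tested.

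The surroundings of JAG were looked at after these values were seen, and are described without a test. Within 6000 bp of the start, PKL peaks were called at 5 places in jaw-5D, pifQ or hy5, and at none in WT. The place nearest the gene, centred 901 bp before the start in pifQ and 913 bp in hy5, was the one just given. A peak centred 2366 bp before the start was called in 3 pifQ libraries and, at 2390 bp, in 1 hy5 library, but in none of jaw-5D. The next, about 4 kb before the start, was called in 3 jaw-5D, 3 pifQ and 2 hy5 libraries, and a further one, about 5.2 kb before it, in all 9. A peak centred 4896, 4875 and 4868 bp past the start in jaw-5D, pifQ and hy5, beyond the end of the gene, was also called in all 9. In jaw-5D, peaks were thus called at the 3 outer places, with scores of 57 to 225, and not at the 2 inner ones.

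**Figure D4:**
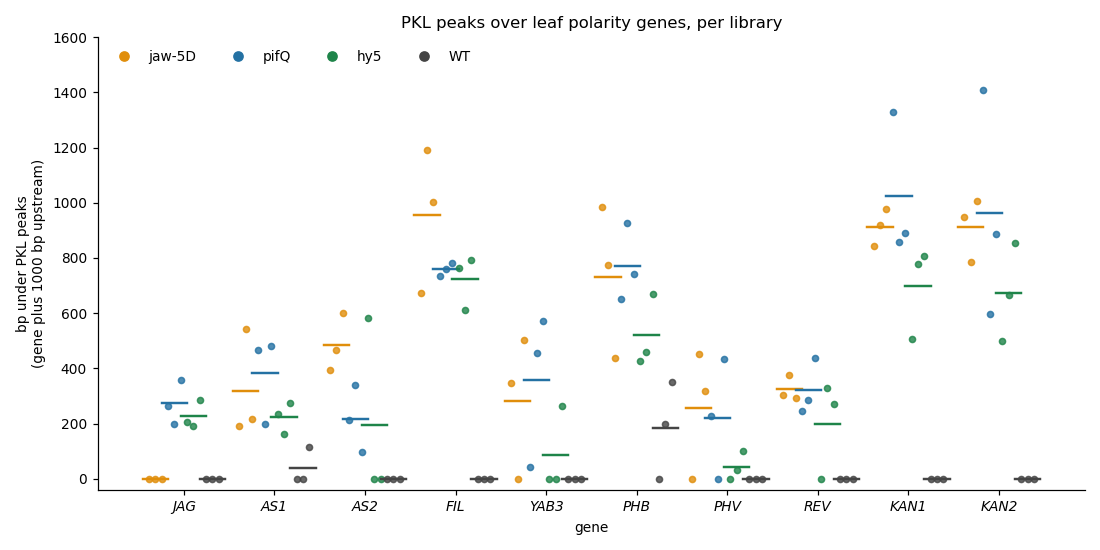
Length under PKL peaks over each gene plus 1000 bp upstream, in bp, with 1 point per library and a bar at the mean, for jaw-5D (orange), pifQ (blue), hy5 (green) and WT (grey) from left to right. WT is at 0 bp in every library except 2 of PHB and 1 of AS1, and JAG is at 0 bp in jaw-5D but at 191 to 358 bp in pifQ and hy5.

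Compared with WT, 3 of 7 tested members were longer in jaw-5D (FIL, KAN1 and KAN2), where 60.4% of 7790 genes were longer and 0.642% shorter. In pifQ 4 of 8 were longer (JAG, FIL, KAN1 and KAN2), where 56.5% of 7840 genes were longer and 0.612% shorter. In hy5 4 of 6 were longer (the same 4), where 64.2% of 6919 genes were longer and 0.578% shorter. None was shorter, and these shares of members stand near those of all genes. With all lists held to -log10 q of at least 2, the end of the WT lists, the counts of members were again 3, 4 and 4. Members other than PHB and AS1 were at 0 bp in WT and so entered these tests through the other line alone. The values are centred, which lowers the differences by 1.15, 1.23 and 1.11 (log2) in jaw-5D, pifQ and hy5. Without centring, 7, 8 and 6 members were longer, where 97.6%, 98.1% and 97.4% of all genes tested were. For FIL, KAN1 and KAN2, centred adjusted p-values ran from 2.89e-05 (FIL in jaw-5D) to 0.0003 (KAN2 in hy5). With peaks limited to -log10 q of at least 10, the call for KAN2 in jaw-5D was lost (limma adjusted p = 0.0993). The calls for JAG were close to the threshold (limma adjusted p = 0.0292 in pifQ and 0.0370 in hy5). They were lost in 8 of 15 and 11 of 15 alternatives in which JAG could be tested. It could not be tested at -log10 q of at least 10, with 200 bp needed, or with equal numbers of peaks. With each library limited to an equal number of peaks, the 632 of the smallest WT list, 1 member, PHB, could be tested in these 3 comparisons. It was not called. Over all genes tested, 49, 41 and 38 were then longer in jaw-5D, pifQ and hy5, against 4709, 4429 and 4439 with all peaks.

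The 3 lines were also compared with each other, where the lists share 1 format. In pifQ against jaw-5D 1 of 10 members was longer, JAG, and 0 were shorter, where 1.72% of 10811 genes were longer and 1.37% shorter. In hy5 against jaw-5D 1 of 10 was longer, JAG again, and 0 were shorter, where 0.818% of 10269 genes were longer and 2.43% shorter. These 2 comparisons share the jaw-5D libraries. JAG is at 0 bp in jaw-5D and entered both tests through the other line alone. In hy5 against pifQ 0 of 10 were called by limma, where 0.293% of 10242 genes were longer and 1.09% shorter, and 0 had an unadjusted p under 0.05, where 10.2% of all genes tested did. JAG had a centred log2 difference of -0.07 ± 0.24 there (SE, n = 3 each, limma adjusted p = 0.995).

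AS2 was the next member by size in the comparisons with jaw-5D. The log2 difference was -0.95 ± 0.64 in pifQ (SE, n = 3 each, limma adjusted p = 0.652) and -1.61 ± 0.64 in hy5 (limma adjusted p = 0.262). Without hy5 replicate 1, the 1 hy5 library with a peak at AS2, the hy5 value was -2.54 (limma adjusted p = 0.00178), so this library decides the call. KAN1 lay lower in every hy5 library than in every jaw-5D and every pifQ library, without passing (log2 -0.37 ± 0.22, SE, n = 3 each, limma adjusted p = 0.545 against jaw-5D). The share of all genes with such an order was not computed, so it cannot be called particular to KAN1.

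Among the related genes, PKL cover was longer than in WT for 8 of 11 tested in jaw-5D, 8 of 17 in pifQ and 6 of 11 in hy5 (limma, centred). Over all genes tested, 60.4%, 56.5% and 64.2% were longer. Shorter cover was called for 0 related genes, where 0.642%, 0.612% and 0.578% of all genes were shorter. None of the 41 was bound in 2 or more WT libraries, so they entered these tests mainly through the other line. The WT lists also end at another q. KAN3, ARF2, AGO7, KNAT6, WOX1 and LUG passed in all 3 lines, TCP10 in jaw-5D and pifQ, AGO1 in jaw-5D and TCP2 in pifQ. WOX1, whose H3K4me2 was shorter in pkl, had 943, 636 and 873 bp in jaw-5D, 901, 774 and 702 bp in pifQ, 1028, 682 and 763 bp in hy5, and 5, 0 and 121 bp in WT. Between the lines, 1 of 23 related genes was called in pifQ against jaw-5D. This was TCP2, one of the TCP genes targeted by the microRNA of jaw-5D, with 792, 1143 and 682 bp in pifQ and 0, 0 and 0 bp in jaw-5D (limma adjusted p = 0.0079), tested through the pifQ libraries alone. In hy5 against jaw-5D 0 of 19 were called, and in hy5 against pifQ 0 of 22.

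In pkl seedlings, transcript levels of the 10 genes spanned a wide range, and all but JAG were above 1 TPM. Levels are in TPM, which corrects for gene length. AS1 had the highest level, with 46.9, 49.2 and 54.2 TPM. YAB3 followed with 33.8, 34.4 and 35.2 TPM and FIL with 25.8, 26.7 and 27.9 TPM. The ranges of these 3 did not overlap. Among the HD-ZIP III genes, PHB had 17.1, 20.1 and 21.5 TPM, PHV 16.9, 18.3 and 18.4 TPM and REV 12.9, 14.5 and 14.5 TPM. PHB and PHV overlapped, while REV lay below both. KAN2 had 7.38, 7.50 and 6.46 TPM and KAN1 6.56, 7.28 and 7.04 TPM, which overlapped. AS2 had 3.26, 2.55 and 4.23 TPM.

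JAG was at the low end, with 0.251, 0.320 and 0.314 TPM from 4, 5 and 5 counts, so its level rests on few reads. Of all nuclear genes 35.2% lay below JAG, against 49.4% below AS2 and 90.0% below AS1. The median over the 10 genes was 15.9 TPM, against 9.03 TPM over the 41 related genes and 3.55 TPM over all nuclear genes. REV and KAN1 each overlap a gene on the opposite strand, by 67 and 25 bp. Whether counting used the strand is not stated, so reads in those stretches cannot be assigned. Levels of pkl were not compared with another genotype.

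**Figure D5:**
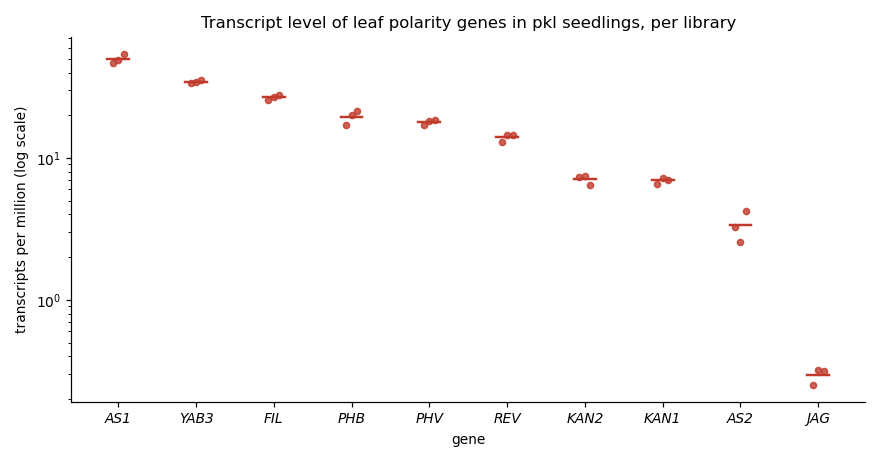
Transcript level of each gene in the 3 pkl libraries, in TPM on a log scale, with 1 point per library and a bar at the mean, from the highest (AS1) to the lowest (JAG). AS1 lies at 46.9 to 54.2 TPM and JAG at 0.251 to 0.320 TPM.

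The order of transcript levels and the H3K4 patterns in pkl can be set side by side. The 4 genes with H3K4me1 over their bodies ran from 12.9 to 54.2 TPM over the 3 libraries. The YABBY genes, with H3K4me3 alone, had 26.8 and 34.5 TPM, and KAN1 and KAN2, with H3K4me2 and H3K4me3, had 6.96 and 7.12 TPM. AS2, with marks toward its 3′ end, had 3.34 TPM, and JAG, with no H3K4 peak in pkl, had 0.295 TPM. These are 10 genes in 1 genotype, given as a description.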

How the data were processed

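ChIP-seq peak lists (30 libraries) and RNA-seq of pkl (3) were used. Inputs and Hi-C samples were not analysed here. Per the submitters' processing notes, the build was TAIR10, and MACS2 2.2.5, Bowtie2 2.3.3, HISAT2 2.1.0, SAMtools 1.6, fastp and deepTools were used, in roles not given. The deposited lists give per peak a score, a fold enrichment ratio and -log10 p and q, made by the authors' caller. The deposited RNA tables hold raw counts per gene from the authors and a table they call FPKM. Its values sum to nearly the same total in every library and follow count over exon length exactly, so these deposited values were used as TPM. The plan named FPKM. A further 6 columns match no sample and were left out.

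From the lists, bp under peaks were summed per gene. Genes marked in at least 3 of the 6 libraries compared were tested with limma 3.58.1 in R 4.3.3 on log2(bp + 100), two-sided, with Benjamini-Hochberg adjustment over all genes tested. The 12 PKL libraries shared 1 fit. Libraries were centred on genes marked in every library where that moved the difference by over 0.1 (log2), namely H3K4me2, PKL against WT, and hy5 against pifQ. Against a group at 0 bp, the fitted log2 value moves with the bp added and bounds nothing. The fit was tested on data simulated from genes with 150 bp or more in every library. Groups at 0 bp, as for JAG in pkl, were not part of that simulation. P-values measure spread between these samples. RefSeq matched 28932 gene identifiers. All 10 members are named, and related genes that pass a test or are bound in 2 WT libraries. Members and lists were chosen with earlier results of these data known.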

Additional observations from a re-analysis of the deposited data

Results flagged for a closer look

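PKL cover at JAG was called as differing between lines, by the test of the difference itself. The log2 difference was 1.88 ± 0.20 in pifQ against jaw-5D and 1.70 ± 0.20 in hy5 against jaw-5D (SE, n = 3 each, limma adjusted p = 0.000336 and 0.000689). Both values depend on the 100 bp added to the 0 bp of jaw-5D. JAG entered these tests through the pifQ or hy5 libraries alone, and the jaw-5D libraries, all at 0 bp, have no spread. The peaks were weak, with scores of 35 to 78. With peaks limited to -log10 q of at least 10, JAG could not be tested. The cover was higher in 3 of 3 pifQ and 3 of 3 hy5 libraries. Neither cause nor a link to the H3K4me2 peak of JAG, measured in pkl and WT, was tested.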

How the results depend on the processing

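The median level of the 10 genes in pkl, 15.9 TPM, was the same when TPM were computed from the counts and ran from 15.7 to 16.4 without single replicates. Counts of members called stayed within 1.5 times in 136 of 153 alternatives, where 0 against 0 also counted as within. An equal count can hold other genes. In jaw-5D against WT at -log10 q of at least 10, AS1 was gained and KAN2 lost. In pifQ against WT with only these groups in the fit, REV was gained and JAG lost. For H3K4me2, 0 were called at -log10 q of at least 10, against 1. In jaw-5D against WT, 3 became 6 with 10 bp added, 7 without centring, 5 with only these groups in the fit, and 7 with 3000 bp upstream, a window chosen after seeing the data. In pifQ against WT, 4 became 8 without centring and 7 with 3000 bp. With equal numbers of peaks, 0 were called in all 3 comparisons with WT, where 1 member, PHB, could be tested. In pifQ and in hy5 against jaw-5D, 0 were called at -log10 q of at least 10, with 200 bp needed, and with equal numbers of peaks, since JAG could no longer be tested. Leaving out single libraries gave 1 to 2 in hy5 against jaw-5D (2 without hy5 replicate 1, adding AS2).

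With 500 bp added, JAG against WT turned to -0.14 in pifQ and -0.14 in hy5 (limma adjusted p = 0.452 and 0.390). These values are centred. No WT library had a peak at JAG, so before centring its cover was higher in every pifQ and hy5 library. The call for JAG in hy5 against WT was also lost with a replicate block (limma adjusted p = 0.0570). Its call in hy5 against WT was also lost with a replicate block (limma adjusted p = 0.0570). That block gave 0, 1 and 0 members for the 3 marks, 3, 4 and 3 for jaw-5D, pifQ and hy5 against WT, and 1, 1 and 0 between lines. Replicate numbers do not pair the samples: same-numbered deviations correlated between -0.157 and 0.117. The cause of these changes was not tested. Peak lists without read counts limit all of these values to what the caller's threshold let through.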
